A study of Cricetiscus sungorus with 216 samples.

Results

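The mediobasal hypothalamus (MBH) was compared with the dorsomedial hypothalamus (DMH) of the same Siberian (Djungarian) hamsters. The members were all 54 MBH and all 54 DMH libraries, of 4 tissues with 54 libraries each in the study, joined into 54 pairs by the animal number that the labels give. The hamsters were adult males, 6 kept in long photoperiod (LP, called LD in the labels) and 6 after each of 4, 8, 12, 16, 20, 24, 28 and 32 weeks in short photoperiod (SP, called SD in the labels), and the labels give no strain, allele or other treatment. Both regions were taken as bilateral punches from coronal brain sections, and each library was made from polyA RNA with a PCR-cDNA kit and read on the nanopore platform. A punch holds every cell type of its area, so fewer cells of a type and less RNA per cell cannot be told apart in any result here. Hamster reads were counted on mouse gene models, and the gene symbols are those of the mouse.

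The MBH surrounds the base of the third ventricle and holds the arcuate and ventromedial nuclei, the median eminence and the pars tuberalis of the pituitary stalk. Its arcuate nucleus has neurons that stimulate feeding through neuropeptide Y and agouti-related peptide, and others that restrain it through peptides cut from proopiomelanocortin. Tanycytes, the elongated glial cells of the ventricle wall, control how much thyroid hormone reaches this tissue, and in seasonal mammals the pars tuberalis signals day length to them through thyrotropin. The DMH lies above it, beside the lateral hypothalamus and below the thalamus, and is known for neurons that control feeding rhythms, body temperature and reproduction.

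The libraries of the regions differed in depth and make-up. Counts per library without the transcript Gm32262, which took 8.34% to 65.7% of all counts in the MBH and 15% to 69.4% in the DMH, ran from 4523 to 7171613 (median 952541) in the MBH and from 86671 to 5574249 (median 891443) in the DMH. A set of 12 further transcripts that varied together across libraries, led by Gm33937 and Bc1, took 1.82% to 68.8% (median 28.6%) of the remaining MBH counts and 14% to 80.4% (median 72.2%) of those of the DMH. Their share was higher in the DMH library in 49 of 54 hamsters, and more genes were read in the MBH library in 45. The number of genes read was 898 to 15115 (median 11917) in the MBH and 433 to 14649 (median 6396.5) in the DMH. In 30 hamsters both libraries read at least 5000 genes, and results are also given for these 30 deeper pairs.

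**Figure D1:**
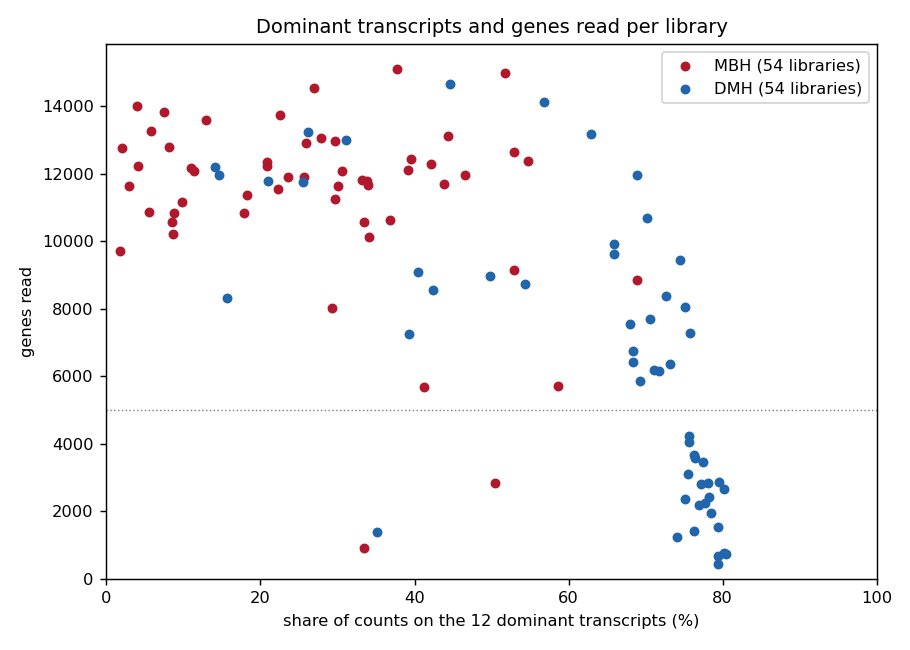
Share of each library taken by the 12 dominant transcripts (horizontal axis, percent of counts without Gm32262) against the number of genes read (vertical axis), 1 point per library, with a dotted line at 5000 genes. DMH points gather at high shares and low gene numbers, around medians of 72.2% and 6396.5 genes, and MBH points around 28.6% and 11917 genes.

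In 1 deeply read MBH library the markers went against the label. That of replicate 4 at 20 weeks SP, with 950971 counts and 11643 genes read, had 0 CPM of Npy, Cga and Gpr50 and 0.966 CPM of Agrp. Apart from it and the library named next, the 52 MBH libraries had 0.632 to 204.9 CPM of Npy and 0.425 to 477 CPM of Cga. This library instead had 36.7 CPM of Shox2 and 908 CPM of Tcf7l2, against at most 0.438 and 432 CPM in those 52. Its DMH partner read only 687 genes. The MBH library of replicate 2 at 20 weeks SP had 4523 counts and read 898 genes. A further 4 MBH libraries held little of the markers. Replicates 2 and 3 at 4 weeks SP had 5.52 and 0.632 CPM of Npy and 0.425 and 0.632 CPM of Cga, and replicates 3 and 5 at 24 weeks had 8.46 and 8.39 CPM of Npy and 0.584 and 0.799 CPM of Cga. The latter 2 also held 158 and 107 CPM of Pmch, a lateral hypothalamic gene, against an MBH median of 8.01 CPM. Values are given with all 54 pairs. Without the first 2 pairs the difference defined below changed most, among the genes of the lists, for Shox2 and Lhx9 (-5.89 and -2.29 in place of -5.49 and -2.05), and without all 6 pairs 5376 genes were called higher in the MBH and 582 higher in the DMH, against 6581 and 576 with all pairs.

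Levels are given as CPM, counts scaled to a library of 1000000 after adjustment by the TMM factors of edgeR. A difference is the log2 ratio of MBH over DMH from the paired fit, with an approximate standard error (SE) taken from the test. A gene is called when the false discovery rate (FDR) of the paired quasi-likelihood test is below 0.1. Of 15349 genes tested, 7157 were called (46.6%), 6581 higher in the MBH (42.9%) and 576 higher in the DMH (3.75%). The median gene was 0.61 higher in the MBH on the log2 scale. When the scaling was shifted so that the median gene lay near 0 (0.06 on the log2 scale), 1659 genes were called higher in the MBH (10.8%) and 1672 higher in the DMH (10.9%). All 1659 of the former and 576 of the latter were also called with TMM in the same direction, and these are described as called with both scalings. The shift moves every gene toward the DMH by about the same amount. All 576 genes called higher in the DMH with TMM therefore kept their call by construction. For genes higher in the DMH, a call with both scalings is no support beyond the call with TMM. With library totals and no TMM the median gene was 2.43 higher in the MBH, and 14110 genes were called higher there against 42 in the DMH. Of 48 named genes called higher in the DMH with TMM, 30 kept that sign with library totals, and all 48 lay below the median gene there. The shares of all genes, 42.9% and 3.75% with TMM and 10.8% and 10.9% after the shift, are the background for each count of list members. In the 30 deeper pairs, with the shifted scaling, 930 of 14809 genes were called higher in the MBH (6.28%) and 1527 higher in the DMH (10.3%), and with TMM in the same pairs 2713 (18.3%) and 661 (4.46%). Without the animal as a block, 5214 genes were called higher in the MBH and 977 higher in the DMH.

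**Figure D2:**
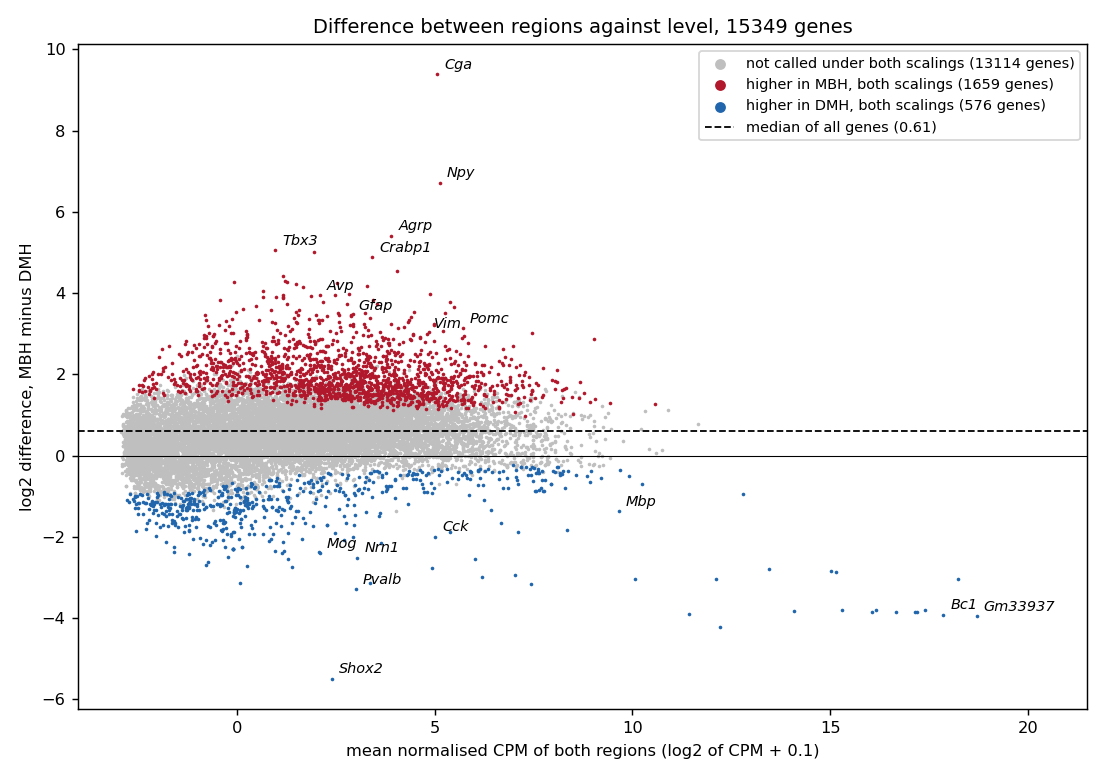
Difference between the regions (vertical axis, log2 MBH minus DMH) against mean level (horizontal axis, log2 of CPM plus 0.1) for each of the 15349 genes tested, with genes called in either direction with both scalings coloured, a dashed line at the median of all genes (0.61) and a few genes labelled. Cga, Npy and Agrp lie highest, Shox2 lies lowest, and the dominant transcripts lie far to the right below 0.

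The 4 markers, of the arcuate nucleus (Agrp, Npy, Pomc) and the pars tuberalis (Cga), were higher in the MBH, each in at least 50 of 54 hamsters. Agrp, which encodes agouti-related peptide, ran from 0 to 74.4 CPM (median 23.7) in the MBH and from 0 to 7.06 CPM (median 0) in the DMH. It was read in 53 MBH and 12 DMH libraries. The ranges overlapped at their ends, and in 53 hamsters the MBH library was the higher, the exception being the pair with 4523 MBH counts in which neither library read it. The difference was 5.41 ± 0.31 (SE, edgeR FDR 2.92e-22), or 42.5-fold, and 4.83 with the shifted scaling.

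Npy, the neuropeptide made by the same feeding neurons, had 0 to 204.9 CPM (median 68.2) in the MBH and 0 to 25.3 CPM (median 0) in the DMH. Its difference of 6.72 ± 0.30 (edgeR FDR 3e-27) was 6.69 without the 2 pairs that stand apart. The MBH library was the higher in 52 hamsters, and in the 2 others both libraries had 0. Pomc, the precursor of melanocortin peptides and beta-endorphin, had 7.25 to 232 CPM (median 91.0) in the MBH and 0 to 61.1 CPM (median 9.54) in the DMH. This gene was read in every MBH library and in 34 DMH libraries, so that the ranges overlapped more than those of Agrp and Npy. It was higher in the MBH in 50 hamsters and in the DMH in 4, with a difference of 3.13 ± 0.33 (edgeR FDR 1.72e-11). The 4 exceptions were replicate 3 at 4 weeks SP (22.1 CPM in the MBH and 58.1 in the DMH), replicate 2 at 12 weeks (49.6 and 59.2), replicate 5 at 24 weeks (22 and 32.6) and replicate 2 at 32 weeks (48.1 and 61.1).

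Cga encodes the alpha subunit shared by thyrotropin and the gonadotropins, a product of the pars tuberalis and the anterior pituitary. It ran from 0 to 477 CPM (median 32.6) in the MBH and was at 0 in all DMH libraries but 1, which had 0.638 CPM. Over all libraries the MBH held 8714 counts and the DMH 1 count. The pooled levels of 61.1 and 0.0185 CPM had a ratio of 3298, with an exact Poisson 95% interval of 592 to 130269 that covers counting error only. The 2 regions were separated in 53 hamsters, and the edgeR FDR was 1.69e-38. All 4 markers were called higher in the MBH under each of the 31 alternatives in which they were tested, and in the 30 deeper pairs Agrp, Npy and Cga were higher in the MBH library of all 30 hamsters and Pomc in 29.

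**Figure D3:**
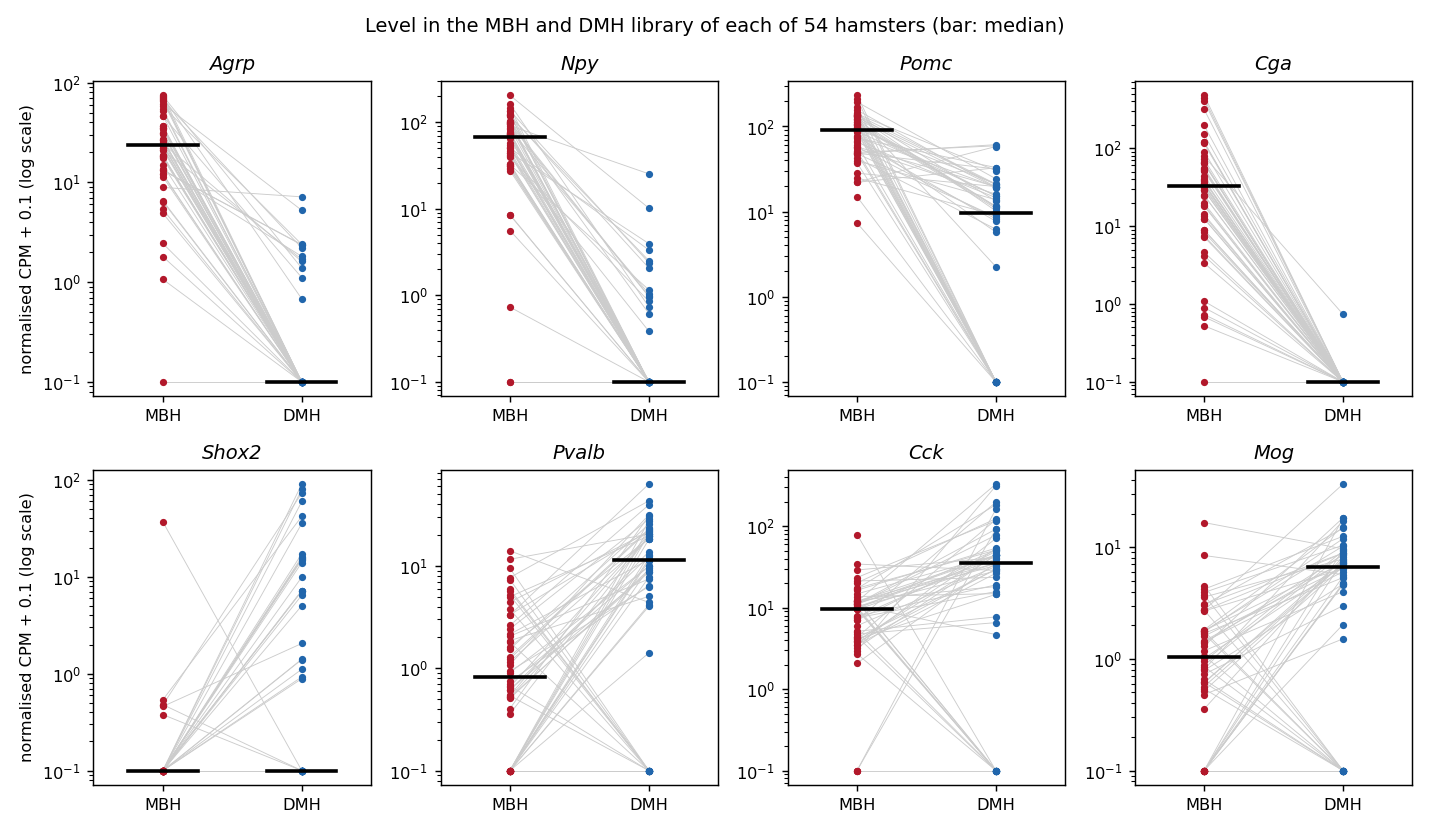
Levels of Agrp, Npy, Pomc, Cga, Shox2, Pvalb, Cck and Mog (vertical axis, CPM plus 0.1 on a log scale) in the MBH and DMH libraries of 54 hamsters, with a line joining the 2 libraries of a hamster and a bar at the median. Agrp, Npy and Cga fall from MBH to DMH in nearly every hamster, while Pvalb, Cck and Mog are mostly higher in the DMH library.

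Of 23 arcuate and neuroendocrine neuron genes tested, 20 were called higher in the MBH and 1 higher in the DMH, with a median difference of 2.35 against 0.61 over all genes. With the shifted scaling these counts were 16 and 2. Summed over the list, the MBH library held more than the DMH library in all 54 hamsters (126 to 793 CPM against 0 to 254). The list holds transcription factors, peptides and receptors, and each kind had called members. Tbx3, a factor needed for arcuate peptide neurons, had 0 to 12.0 CPM (median 3.70) in the MBH and was read in 3 DMH libraries only, up to 1.62 CPM. Its difference was 5.06 ± 0.29 (edgeR FDR 9.39e-21), and the MBH was higher in 47 hamsters and the DMH in none. With 5 DMH counts in all, this SE does not give the counting error of the ratio. Asb4, a ubiquitin ligase adaptor of arcuate neurons, differed by 3.33 ± 0.30 and Isl1, a developmental factor of the same neurons, by 2.77 ± 0.35, both called with both scalings. Crabp1, a retinoic acid binding protein, was read in all 54 MBH libraries (0.425 to 74.5 CPM, median 15.5), and its DMH level stayed at or under 3.53 CPM. It was higher in the MBH in all 54 hamsters, by 4.88 ± 0.30.

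Among the other arcuate peptides, Gal (galanin) had a median of 31.7 CPM in the MBH and 0.989 CPM in the DMH, a difference of 3.34 ± 0.35. Cartpt, the precursor of the CART peptide, had medians of 62.8 and 9.96 CPM and differed by 2.32 ± 0.30. Sst (somatostatin, which inhibits growth hormone release) had 0 to 111 CPM (median 40.5) in the MBH and 0 to 51.5 CPM (median 9.03) in the DMH. The MBH was higher for Sst in 52 of 54 hamsters, with a difference of 2.24 ± 0.24, and these 3 peptides were called with both scalings. Tac2, the neurokinin B gene, was called with TMM alone (1.14 ± 0.31, and 0.55 with an FDR of 0.252 after the shift). Th, the rate-limiting enzyme of dopamine synthesis, was not called, with medians of 2.20 CPM in the MBH and 1.49 CPM in the DMH, and neither was Slc6a3, the dopamine transporter. After the shift Th was called higher in the DMH (-0.78, FDR 0.0502). Rbp4, a retinol carrier, was the exception called higher in the DMH (median 17 against 11 CPM, -0.57 ± 0.23), and with library totals its sign turned.

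In the ventromedial list, 7 of 10 genes tested were called higher in the MBH and 0 higher in the DMH, and 4 were called with both scalings. Fezf1, a factor that specifies this nucleus, was read in 44 MBH libraries (0 to 8.80 CPM, median 1.45) and in 1 DMH library. Its 259 MBH counts against 1 DMH count gave a pooled ratio of 98.0 (95% interval 17.6 to 3872, counting error only). Sox14, a factor of GABA neurons, differed by 2.94 ± 0.33 and Cnr1, the cannabinoid receptor, by 2.33 ± 0.45. Adcyap1, the PACAP gene, had medians of 60.2 and 19.6 CPM and was called with TMM (1.48 ± 0.38), but in the 30 deeper pairs with the shifted scaling its difference was 0.05 and it was not called.

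Tanycyte genes were mostly higher in the MBH. Of 20 tested, 16 were called higher there and 0 higher in the DMH (median difference 2.20), and with the shifted scaling 12 and 1. Vim (vimentin, an intermediate filament of tanycytes) had 0 to 143 CPM (median 45.9) in the MBH and 0 to 24.7 CPM (median 6.08) in the DMH. Its MBH library was the higher in 53 hamsters and never the lower, with a difference of 3.00 ± 0.22 (edgeR FDR 3.07e-17). Gpr50, an orphan receptor related to the melatonin receptors, had medians of 5.67 and 0 CPM and differed by 5.02 ± 0.30, although 5 MBH libraries did not read it.

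Genes of thyroid hormone handling in tanycytes were among those called with both scalings. Crym, a thyroid hormone binding protein, had 0 to 24.5 CPM (median 10.7) in the MBH and at most 5.92 CPM in the DMH (4.26 ± 0.30). Dio2, which converts thyroxine to its active form, had 0 to 4.81 CPM (median 1.11) in the MBH and reads in 12 DMH libraries (2.33 ± 0.33). Lhx2, a factor that tanycytes need, differed by 3.77 ± 0.45. Rax, another such factor, had 87 MBH counts against 3 DMH counts, a pooled ratio of 11 (95% interval 3.76 to 53.2). Slco1c1, a thyroid hormone transporter that brain vessels also carry, was called with TMM (1.05 ± 0.30) and not after the shift. The 4 that were not called included Gpr37l1 and Aldh1a1, and both were higher in the DMH library of most deeper pairs, in 27 and 26 of 30.

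Ependymal genes, which build the motile cilia of the ventricle wall, gave 7 called higher in the MBH and 1 higher in the DMH of 13 tested, near the 42.9% of all genes called higher in the MBH, and 3 and 1 after the shift. Cfap126 (0 to 85.5 CPM, median 36.5, in the MBH and median 0 in the DMH) differed by 2.50 ± 0.33, and Tppp3 by 1.38 ± 0.20, higher in the MBH in 53 hamsters. Foxj1, the master factor of motile cilia, had medians of 0 CPM in both regions and was not called. Sntn, a cilium tip protein, was higher in the DMH (-1.52 ± 0.34), although with library totals its sign turned.

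Pars tuberalis and pituitary genes were called higher in the MBH in 7 of 9 tested and in the DMH in 0, against 42.9% and 3.75% of all genes. After the shift 3 were called higher in the MBH and 1 (Gnrhr, the receptor of gonadotropin-releasing hormone) higher in the DMH (-1.24, FDR 0.0787). Besides Cga, Lhb, the luteinizing hormone beta subunit, had 0 to 142 CPM (median 1.71) in the MBH and reads in 7 DMH libraries (3.35 ± 0.50). Nmu (neuromedin U) had 80 MBH counts against 1 DMH count, a pooled ratio of 30.3 (95% interval 5.43 to 1196). Lhx3, a pituitary factor, had 41 against 1, a ratio of 15.5 (95% interval 2.79 to 613), and its call was lost after the shift (FDR 0.233). Tshb, the thyrotropin beta subunit, was called with TMM (2.10 ± 0.83, FDR 0.0388) and not after the shift (FDR 0.231) or without the 6 pairs with few or no marker reads (FDR 0.106). Its levels by photoperiod group are given below.

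Receptors for the peptides and metabolic hormones that act on the hypothalamus were called higher in the MBH in 18 of 32 tested and higher in the DMH in 2 (median difference 1.28), and in 12 and 3 after the shift. The neuropeptide Y receptors Npy1r (0 to 24.4 CPM, median 10.4, against a DMH median of 0) and Npy2r differed by 3.95 ± 0.38 and 2.82 ± 0.33. Ghsr, the ghrelin receptor, differed by 2.35 ± 0.37 and was read in 37 MBH and 7 DMH libraries. Lepr, the leptin receptor, was read in 28 MBH and 4 DMH libraries, up to 5.75 and 0.571 CPM, with a difference of 2.46 ± 0.41. Under limma-voom its sign turned. Mc3r, a melanocortin receptor, was called with both scalings (1.87 ± 0.34), whereas Mc4r was called with TMM alone (1.42 ± 0.38). Higher in the DMH were Hcrtr1, an orexin receptor, and Crhr1, a receptor of corticotropin-releasing hormone, read in 7 and 8 DMH libraries and in 4 and 10 MBH libraries. Their medians were 0 CPM in both regions, and for Crhr1 the MBH library was the higher in 9 hamsters and the DMH library in 7.

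Steroid and thyroid hormone receptors gave 7 called higher in the MBH and 0 in the DMH of 11 tested, and 4 and 0 after the shift. Rxrg, a partner of thyroid and retinoid receptors, had medians of 11.7 and 0 CPM (3.06 ± 0.29), and Thrb, a thyroid hormone receptor, 49.1 and 0 CPM (3.97 ± 0.56). Thra, the other thyroid hormone receptor, was not called (medians 15.7 and 11.6 CPM).

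Granins and processing enzymes gave 11 of 13 called higher in the MBH with TMM (median 0.92), but only 3 after the shift, namely Pcsk1n, Nnat and Resp18. Resp18, a protein of secretory granules, had at least 115 CPM (median 243) in the MBH and 0 to 234 CPM (median 109) in the DMH and was higher in the MBH in 51 hamsters, by 1.36 ± 0.21. Of 18 imprinted genes that the hypothalamus expresses, 16 were called higher in the MBH (median 1.44), and 10 after the shift. In the 30 deeper pairs with the shifted scaling 5 were called higher in the MBH and 4 higher in the DMH. Cdkn1c, an inhibitor of the cell cycle, differed by 4.18 ± 0.48, Dlk1, a Notch-related protein of endocrine cells, by 2.62 ± 0.29 (medians 68.4 and 8.93 CPM), and Ndn (necdin) by 1.90 ± 0.21.

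Further genes stood among the 15 with the smallest p-values in favour of the MBH. Gpc3, a glypican of the cell surface, had 0 to 26.4 CPM (median 12.7) in the MBH and 0 to 5.92 CPM (median 0) in the DMH and differed by 3.74 ± 0.24. Cited1, a transcriptional co-regulator, had medians of 87.3 and 4.39 CPM (3.66 ± 0.28). Cd44, a hyaluronan receptor, had medians of 29.1 and 0 CPM (4.54 ± 0.35). Dgkk, a diacylglycerol kinase, Dapl1 and Six3, a forebrain homeobox factor, differed by 3.91 ± 0.29, 4.16 ± 0.31 and 4.27 ± 0.32. All 6 were called with both scalings and were higher in the MBH in at least 47 hamsters.

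Peptides of the paraventricular, supraoptic and suprachiasmatic nuclei were read in both regions. Avp (vasopressin) had 0 to 68.9 CPM (median 3.50) in the MBH and at most 5.81 CPM in the DMH (3.95 ± 0.32, MBH higher in 48 hamsters). Oxt (oxytocin) reached 169 CPM in 1 MBH library around a median of 3.22 CPM and 55 CPM in the DMH (2.59 ± 0.49). Six6, a factor of the suprachiasmatic nucleus and pituitary, differed by 3.54 ± 0.31. Vip, a peptide of the suprachiasmatic nucleus, was not called, with up to 40.8 CPM in the MBH and 36.1 CPM in the DMH. Of 6 paraventricular and supraoptic genes tested, 4 were called higher in the MBH and 1 higher in the DMH, and of 7 suprachiasmatic genes 3 were called, all higher in the MBH, which is the share found over all genes (42.9%).

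Several genes known for DMH neurons were higher in the MBH libraries than in those labelled DMH. Npvf, the gonadotropin-inhibitory RFamide peptide of the DMH, was higher in the MBH by 1.56 ± 0.44, with reads in 39 MBH and 9 DMH libraries and maxima of 12.3 and 20.2 CPM. Ppp1r17, a marker of DMH neurons that suppress feeding, was higher in the MBH by 1.90 ± 0.33, and Brs3, the bombesin-like receptor of DMH neurons for body temperature, by 2.07 ± 0.37. Npvf was called with TMM alone and the others with both scalings. Grp (gastrin-releasing peptide) was not called with TMM, with 0 CPM in 37 DMH and 30 MBH libraries, and was called higher in the DMH after the shift (-1.32, FDR 0.0993). In the 30 deeper pairs Npvf was at 0 in 22 DMH and 8 MBH libraries. Its difference there was 1.55 with TMM (edgeR FDR 0.062) and 1.24 with the shifted scaling, where it was not called (edgeR FDR 0.179).

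The 4 members of this list that were called higher in the DMH with TMM stayed so after the shift, by construction. With library totals the sign turned for Cck (0.29), Pmch (0.43) and Hcrt (0.26). Cck (cholecystokinin) had 0 to 330 CPM (median 35.1) in the DMH and 0 to 79.1 CPM (median 9.54) in the MBH, higher in the DMH in 42 hamsters (-2.0 ± 0.31, edgeR FDR 1.27e-06). Pmch, the melanin-concentrating hormone gene of the lateral hypothalamus, had 0 to 388 CPM (median 29.8) in the DMH and 0 to 158 CPM (median 8.01) in the MBH (-1.87 ± 0.50). Hcrt (orexin), from neighbouring lateral neurons, had at most 45.6 CPM in the DMH and 30.9 CPM in the MBH (-1.67 ± 0.48). Both overlapped widely between the regions, and in the deeper pairs they were higher in the DMH in 25 and 23 of 30 hamsters. Lhx9, a factor of orexin neurons, was read in 13 libraries of each region and differed by -2.05 ± 0.60. In all, 9 of 15 dorsomedial and lateral genes tested were called higher in the MBH and 4 higher in the DMH, against 42.9% and 3.75% of all genes, and 4 and 5 after the shift. Without the 6 pairs named above, Pmch and Hcrt differed by -2.35 and -1.99.

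Of all listed genes, Shox2, a factor of thalamic neurons, had the largest difference in favour of the DMH. It was read in 24 DMH libraries, up to 90.4 CPM, and in 6 MBH libraries, of which 1 had 36.7 CPM and the others at most 0.438 CPM. The difference was -5.49 ± 0.52 (edgeR FDR 2.79e-10) with all pairs. Without the pairs that stand apart it was -5.89, since 76 of the 81 MBH counts lay in the library of replicate 4 at 20 weeks SP. Prkcd, a kinase of thalamic relay neurons, was also called higher in the DMH (-2.06 ± 0.58), with medians of 0 CPM in both regions. It was read in 20 DMH and 26 MBH libraries. The DMH library was the higher in 19 hamsters and the MBH library in 18. In the DMH library with the highest Shox2 level, Prkcd was at 73.9 CPM and Tcf7l2, a further thalamic factor, at 1381 CPM, while in 12 of the 30 deeper DMH libraries Shox2 was at 0. Tcf7l2 itself was not called, with maxima of 1895 CPM in the DMH and 908 CPM in the MBH. Of 12 thalamus and zona incerta genes tested, 3 were called higher in the DMH and 2 higher in the MBH.

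Pvalb (parvalbumin, a calcium-binding protein of fast-spiking neurons) had 0 to 62.8 CPM (median 11.2) in the DMH and 0 to 13.9 CPM (median 0.726) in the MBH. It was higher in the DMH in 42 hamsters and in 28 of the 30 deeper pairs, with a difference of -3.29 ± 0.34 (edgeR FDR 1.2e-11). Lhx6, a factor of parvalbumin and somatostatin neurons, was read in 17 DMH libraries, up to 133 CPM (-2.75 ± 0.56). Its medians were 0 CPM in both regions, and the DMH library was the higher in 17 hamsters and the MBH library in 12. In contrast Gad1, which makes GABA, had medians of 64.4 CPM in the MBH and 9.27 CPM in the DMH (1.94 ± 0.32), and the GABA neuron factor Dlx1 and the peptidase Ecel1 differed by 2.47 ± 0.39 and 2.95 ± 0.39. The vesicular glutamate transporter Slc17a6 was not called (medians 19 and 15.7 CPM). Of 16 such genes, 9 were called higher in the MBH and 3 higher in the DMH with TMM, and 3 and 4 after the shift.

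Cortical and mammillary genes were low and mixed. Neurod6, a factor of cortical pyramidal neurons, was read in 11 DMH libraries, up to 5.15 CPM, and in 7 MBH libraries, up to 0.791 CPM (-2.12 ± 0.42). Of 10 cortex and hippocampus genes tested 4 were called in each direction, and of 4 mammillary genes 1 was higher in the MBH and 2 in the DMH. Of 9 striatal genes, 6 were called higher in the MBH, 3 of them with both scalings, and 1 higher in the DMH.

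Myelin was the clearest group in favour of the DMH. Of 20 oligodendrocyte and myelin genes tested, 15 were called higher in the DMH and 0 higher in the MBH (median difference -1.19), and 19 and 0 after the shift. Mog, a myelin surface glycoprotein, had 0 to 36.6 CPM (median 6.49) in the DMH and 0 to 16.5 CPM (median 0.939) in the MBH (-2.40 ± 0.28, edgeR FDR 5.48e-10). Mbp (myelin basic protein) had 0 to 5249 CPM (median 981) in the DMH and 0 to 2394 CPM (median 241) in the MBH (-1.37 ± 0.49). Ranges overlapped, but in the 30 deeper pairs both genes were higher in the DMH library of 28 hamsters, and so was the sum over the list. With library totals the sign turned for Mbp (0.67) and Mal (0.50). Mal and Ermn, further myelin proteins, differed by -1.53 ± 0.28 and -1.91 ± 0.37. Of genes of oligodendrocyte precursors, 4 of 9 were called higher in the MBH with TMM and 0 with both scalings, while 2 were called higher in the DMH after the shift.

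Astrocyte genes differed little with TMM. Of 16 tested, 2 were called higher in the MBH and 1 higher in the DMH. Gfap, the astrocyte filament that tanycytes also make, had 0 to 48.1 CPM (median 11.6) in the MBH and 0 to 13.3 CPM (median 0) in the DMH (3.44 ± 0.33). Glul, glutamine synthetase, had 7.82 to 39.4 CPM (median 20.0) in the MBH and 0 to 68.5 CPM (median 30.4) in the DMH (-0.59 ± 0.17) and was higher in the DMH in all 30 deeper pairs, although with library totals its sign turned. In these pairs with the shifted scaling 12 of the 16 were called higher in the DMH, so the direction of the list rests on the scaling and on the pairs used.

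Other cell types that a punch can hold were compared in the same way. Meningeal and fibroblast genes gave 10 of 11 called higher in the MBH (median 2.20) and 9 after the shift. Mgp, a matrix protein, had medians of 11.6 and 0.818 CPM (2.92 ± 0.24), and Dcn (decorin) 3.98 and 0 CPM (2.75 ± 0.32). Choroid plexus genes were mixed, with 4 of 10 called higher in the MBH, near the share of all genes, and 1 higher in the DMH, and 2 in each direction after the shift. Ttr, their defining transcript, was not called with TMM (medians 1.61 and 0 CPM, DMH maximum 182 CPM) and was called higher in the DMH after the shift (-1.34, FDR 0.0808). Microglial, endothelial and mural genes gave 2 of 12 and 0 of 13 called higher in the MBH and 0 and 1 higher in the DMH. After the shift 0 of either list were called higher in the MBH with edgeR and 4 and 3 higher in the DMH, so their direction rests on the scaling. The haemoglobin genes Hbb-bs and Hbb-bt, near-identical copies whose reads cannot be told apart, had medians of 229 and 227 CPM in the DMH and 115 and 114 CPM in the MBH (both -0.86 ± 0.17), higher in the DMH in 43 hamsters, although with library totals their signs turned. Of 11 skeletal muscle genes 0 were called with edgeR and TMM and 1 after the shift, and in 1 DMH library they summed to 11669 CPM against a DMH median of 4.42 CPM. The part of these cell types in the other results was not tested.

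**Figure D4:**
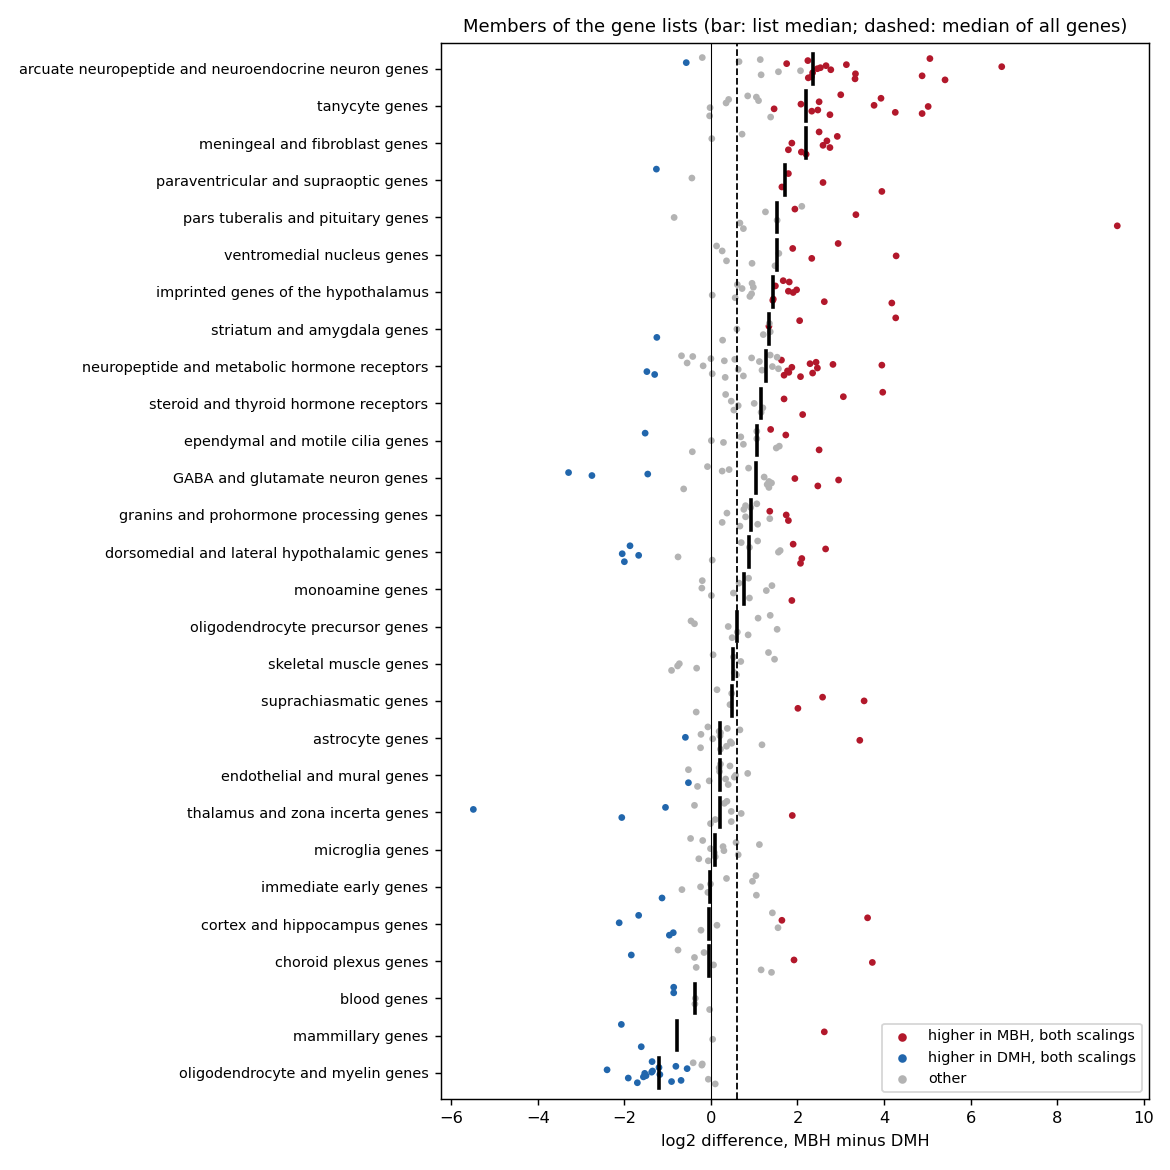
Difference between the regions (horizontal axis, log2 MBH minus DMH) for the tested members of each of 28 gene lists, 1 point per gene, with genes called with both scalings coloured by direction, a bar at the list's median and a dashed line at the median of all genes, 0.61. Arcuate, tanycyte and meningeal genes lie to the right and myelin genes to the left, with medians of 2.35, 2.20, 2.20 and -1.19.

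Of the 15 genes with the smallest p-values in favour of the DMH, 10 belonged to the 12 dominant transcripts, which took a mean of 18.7% (Gm33937), 10.4% (Bc1, a small neuronal RNA) and 6.71% (Lrrc17) of the DMH counts against 7.64%, 4.34% and 2.97% of those of the MBH. Each dominant transcript was higher in the DMH in 49 or 50 hamsters, with differences from -3.81 to -4.23. The others were Gm27188, Akap5, Ppp1r15b, Gmeb2 and Pla2g1b. Among these, Gm27188 had a difference of -3.05 over all pairs (edgeR FDR 2.07e-12). In the 30 deeper pairs with the shifted scaling it was -2.24 ± 0.22, with the DMH library higher in 28 hamsters. Their mouse gene models collect reads of hamster transcripts whose identity was not tested. Without the 12 dominant transcripts, 6069 genes were called higher in the MBH and 649 higher in the DMH.

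The difference between the regions was then compared across the 9 photoperiod groups by adding 8 interaction terms to the paired fit. Of 15349 genes 0 passed an FDR of 0.1 with edgeR (0%), and 307 had an unadjusted p below 0.05 (2%). The quasi-likelihood method of edgeR 4 also gave 0, with 96 below 0.05. Median paired log2 differences of Agrp ran from 3.41 at 24 weeks SP to 4.94 at 28 weeks, and those of Npy from 4.41 at 4 weeks to 5.93 at 32 weeks, with a prior count of 2. For Agrp the MBH library was the higher in all 6 hamsters of every group but that at 20 weeks, with 5 of 6. Pomc differed least at 12 weeks (1.61) and most at 32 weeks (5.97), and the interaction had an edgeR FDR of 1. In these groups its MBH medians were 62.3 and 70.2 CPM and its DMH medians 26.3 and 0 CPM. The DMH libraries read a median of 7941.5 genes at 12 weeks and 3391 at 32 weeks, and the part of depth was not tested.

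Cga and Tshb encode the alpha and beta subunits of thyrotropin. The paired difference of Cga had a median of 8.00 in LP and 3.40 at 24 weeks SP, with MBH medians of 299 and 10.6 CPM and DMH medians of 0 in every group. Its interaction did not pass the test (edgeR FDR 1). With 1 DMH count over all libraries, the ratio has no DMH level to rest on, so this test cannot show whether it varied. The paired values of Cga follow its MBH level. Tshb had the smallest interaction p of all genes, 2.87e-05 (edgeR FDR 0.441), and is named for that after its values were seen. In LP its MBH libraries held 67.6 to 472 CPM (median 349) and the DMH libraries at most 14.1 CPM. At 8 and 12 weeks SP the MBH medians were 0 and the DMH libraries reached 40.4 and 11.4 CPM, and the MBH library was above its DMH partner in 1 of 6 hamsters at 8 weeks and in 0 of 6 at 12 weeks. At 28 weeks the MBH median was 11 CPM and all DMH libraries were at 0. Tshr, the thyrotropin receptor, was higher in the MBH over all groups (3.32 ± 0.33, read in 42 MBH and 4 DMH libraries).

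**Figure D5:**
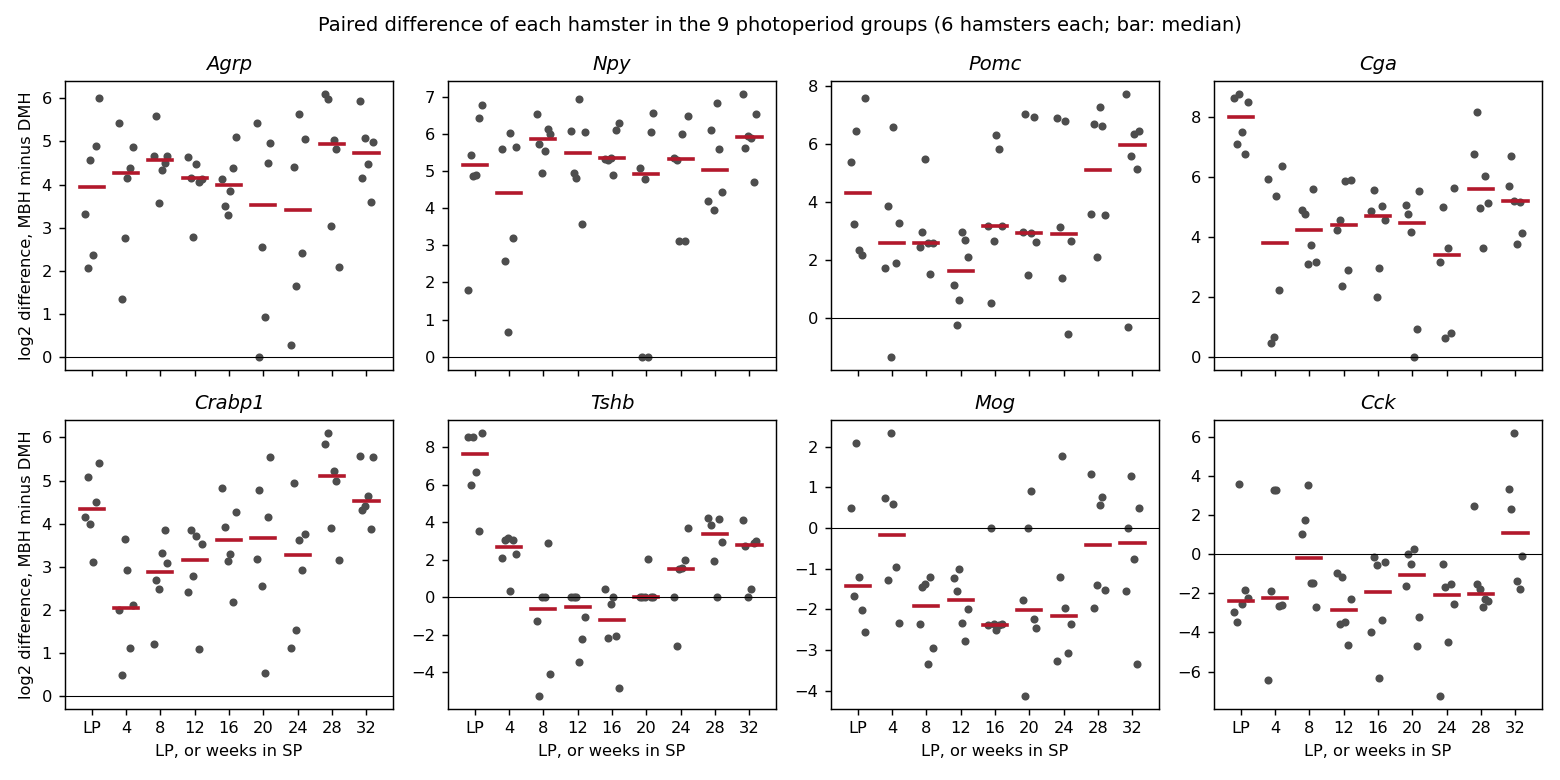
Paired log2 difference between the MBH and DMH library of a hamster (vertical axis, prior count 2) in LP and after 4 to 32 weeks of SP (horizontal axis) for Agrp, Npy, Pomc, Cga, Crabp1, Tshb, Mog and Cck, 1 point per hamster, 6 per group, with a bar at the median. Agrp, Npy and Crabp1 stay above 0 in nearly all hamsters, Cga and Tshb are highest in LP, and Mog and Cck lie mostly below 0.

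Genes higher in the DMH were followed across the groups too. The median paired difference of Pvalb was below 0 in all 9 groups, from -3.85 at 20 weeks to -1.41 in LP, and that of Mog likewise, from -2.38 at 16 weeks to -0.18 at 4 weeks. That of Mbp ran from -3.05 at 8 weeks to 3.78 at 4 weeks and was above 0 at 32 weeks too (0.79). For Cck it ran from -2.88 at 12 weeks to 1.10 at 32 weeks, where the MBH library was the higher in 3 of 6 hamsters. For Shox2 it was lowest at 24 weeks (-2.22) and was 0 in LP and at 4, 8, 20 and 32 weeks. The unadjusted interaction p was 0.428 for Pvalb, 0.148 for Mog and 0.554 for Mbp (edgeR FDR 1 each).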

How the data were processed

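Bilateral tissue punches of the MBH and DMH gave 1 nanopore PCR-cDNA library each per hamster. Per the labels and the study's methods, the authors basecalled with guppy, trimmed and filtered with Porechop and Filtlong, aligned to the mouse genome with Minimap2 and quantified with Salmon, and the deposited values are the estimated counts that Salmon gave per isoform and library. Of the 91460 MBH and 89356 DMH isoforms, the 84377 in both tables were summed per gene symbol (17693) and rounded, and Gm32262 was left out. No column lacked a sample and 0 library pairs held identical values. Whole numbers made up 99.06% and 98.5% of the values above 0 (tolerance 1e-06).

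The 15349 genes read in at least 11 of 108 libraries were tested in edgeR 4.0.16 (R 4.3.3) by quasi-likelihood F with TMM factors, the animal as block and Benjamini-Hochberg adjustment, called at FDR below 0.1. The dispersion trend was estimated on 2000 genes. SE is the size of the log2 difference over the square root of F. It does not give the counting error of a ratio with few counts in 1 region. Tbx3 had 5 DMH counts, and Sox14, Six6 and Lepr had 6 each. The test keeps p no lower than the Poisson test gives, so a gene of low dispersion can have a large FDR beside a small SE. Levels are counts over library total times TMM factor, per 1000000. Interaction used 8 region by photoperiod terms. Alternatives used DESeq2 1.42.0 and limma 3.58.1, other scalings, filters and sample sets. The shifted (centred) scaling, the 30 deeper pairs, the fit without the dominant transcripts, the fit of pairs under 50% dominant transcripts and the fits without the 2 pairs that stand apart or without 6 pairs with few or no marker reads in the MBH were chosen after seeing the data. The dominant transcripts are those among the 60 most abundant whose share correlated above 0.5 with that of Gm33937 across libraries.

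Pairs come from the animal numbers in the labels, which give both libraries of a pair to the same animal. Deviations from the group means over 1773 genes correlated with a median of -0.004 (-0.306 to 0.474) within pairs, above 0.1 in 21 of 54. Libraries of different animals were not compared in this way, so these values cannot decide whether the pairing holds. Each hamster is 1 replicate. Members and gene lists were chosen with earlier results of these data known. Named genes are the 15 with the smallest p per direction among those read in at least 27 libraries, the markers, and up to 4 called genes per list and direction. Other named genes were chosen after their values were seen. Some genes that the rule names are not reported here. The fitting scripts were tested on simulated data. No sequence is given, since no reference was used here.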

Additional observations from a re-analysis of the deposited data

Results flagged for a closer look

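The paired log2 difference of the 4 markers was looked at in each of 9 groups of 6 hamsters, 36 groups in all, and 3 held 1 hamster far from the other 5. Chance alone flags about 1 in 20 groups. At 12 weeks SP the lowest paired difference of Agrp was 2.78 (replicate 3), against 4.07 to 4.65 in the others, with 6.45 CPM in the MBH and 0 in the DMH. At 8 weeks the highest for Pomc was 5.48 (replicate 3), against 1.51 to 2.95, with 48 CPM in the MBH and 0 in a DMH library that read 1531 genes. At 32 weeks the lowest for Pomc was -0.34 (replicate 2), against 5.13 to 7.73, with 48.1 CPM in the MBH and 61.1 CPM in a DMH library that read 3662 genes. The part of DMH depth in these values was not tested.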

How the results depend on the processing

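Agrp, Npy, Pomc and Cga were called higher in the MBH under all 31 alternatives, with log2 differences of 3.59 to 7.23, 4.77 to 8.45, 2.54 to 5.41 and 4.59 to 11.93. Counts of calls depended on scaling and depth, and beyond the changes of samples or genes tested that an alternative makes by construction, the cause was not tested. Against 7157 calls (6581 higher in the MBH, 576 in the DMH), library totals gave 14152 (14110 and 42), the shifted scaling 3331 (1659 and 1672), filterByExpr 3512 (3242 and 270), limma-voom 10590 (3662 and 6928), DESeq2 5582 (4913 and 669), LP pairs alone 146 (33 higher in the DMH), pairs under 50% dominant transcripts 209 (145 and 64), the 30 deeper pairs 3374 (2713 and 661) and these with the shifted scaling 2457 (930 and 1527). Leaving out each photoperiod group in turn gave 5912 to 7149 calls, 5304 to 6671 and 437 to 608 by direction. Without any block 6191 were called (5214 and 977), and with the replicate number as block in place of the animal 6327 (5388 and 939).

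Genes whose difference differed between photoperiod groups numbered 0 of 15349 with edgeR (307 at an unadjusted p below 0.05), but 1 with library totals (Tshb), 198 with every gene of any count, 4 with the highest shared isoform (Hcrt, Oxt, Pmch, Tshb) and 8 without a block.

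Beside the markers 129 named genes gave 3990 values under alternatives, of which 3595 kept direction and side of the threshold, 379 missed the threshold, in either direction, and 16 were called in the other direction. With library totals Rbp4 (1.60), Camk2n1 (1.26), Glul (1.58), Cldn5 (1.59), Hbb-bs (1.36), Hbb-bt (1.37) and Cox6c (1.13) were higher in the MBH. With limma-voom Lepr (-0.82), Scgn (-1.07), Prok2 (-1.55), Fezf2 (-0.87), Wipf3 (-1.48), Nmu (-1.40), Kcnj13 (-1.21), Aqp1 (-0.75) and Cspg4 (-1.30) were higher in the DMH. For each, the cause was not tested. These genes were picked in part for a small p in the main fit. Over all calls, library totals called 225 of the 576 genes higher in the DMH the other way and kept 42. Of the 6581 genes higher in the MBH, limma-voom called 893 the other way, and the deeper pairs with the shifted scaling 91. Without the 2 pairs that stand apart 6671 genes were called (6034 and 637), and of the 129 genes Cspg4 (FDR 0.104) and C1qc (FDR 0.15) were lost. Without these and the 4 pairs whose MBH library held little of the markers 5958 were called (5376 and 582), and Tshb (FDR 0.106), Cspg4 (FDR 0.114) and C1qc (FDR 0.211) were lost. DMH libraries that read few genes limit every comparison of low genes.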

Other observations

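In the 30 deeper pairs with the shifted scaling, further genes differed between the regions and were named after their values were seen. Gstm1, a glutathione transferase of astrocytes, had 39.9 to 119 CPM (median 70.7) in the MBH and at least 89 CPM (median 135) in the DMH and was higher in the DMH of all 30 hamsters (-1.32 ± 0.09, edgeR FDR 8.05e-13). Over all 54 pairs with TMM it was not called (0.04). Nrn1 (neuritin, a neurite growth factor) had medians of 1.68 and 17 CPM and was likewise higher in the DMH of all 30 (-3.50 ± 0.28). The synaptic gene Cplx1 and the chaperone Cryab differed by -2.04 ± 0.21 and -1.98 ± 0.20. Higher in the MBH were Prlhr, the receptor of prolactin-releasing peptide (3.88 ± 0.42), Plagl1, an imprinted factor (3.07 ± 0.35), Nr0b1, a nuclear receptor of the reproductive axis (3.41 ± 0.37), and Irs4, an insulin receptor substrate (3.34 ± 0.42).

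Of 85 ribosomal protein genes, 24 were called higher in the MBH and 19 higher in the DMH with TMM (median 0.08), and 1 and 57 with the shifted scaling (median -0.53). Of 75 oxidative phosphorylation genes the counts were 9 and 23 (median -0.14), and 1 and 55 after the shift (median -0.74). These sets were chosen after their values were seen, and their direction rests on the scaling.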
